A study of Mus musculus with 3 samples.

Results

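Intergenic noncoding RNA loci are stretches of the genome that this array design labels as lincRNA, for long intergenic noncoding RNA. The label is the design's: 631 of the loci hold a probe of a named gene. The array reads them with 60-base probes that each name a strand. They were chosen as the non-control probes whose description column opens with the label lincRNA:chr, since that text stands in the description and not in the gene name column. The rule found 4460 probes for 3240 loci, among 56599 non-control probes in use. Of these loci, 832 were probed on both strands (1893 probes) and 2408 on a single strand (2567 probes). The forward strand held 2231 of the probes and the reverse strand 2229. Position and strand are given on the mouse build mm9 named in the file headers. For all 4369 probes with a genome position the order of the coordinates gave the strand in the label, and 91 probes had no position.

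Spleen cells from a male of the strain MRL/MpJ, 6 months old, were cultured for 3 h in medium with PBS, MRL/MpJ urine or MRL/MpJ-Faslpr/lpr urine, the last called lpr urine from here on. MRL/MpJ-Faslpr/lpr mice carry a Fas mutation and develop a disease like lupus. Urine of 6 male donors per strain, also aged 6 months, was pooled and filtered at 0.22 µm, and red blood cells were lysed before culture. Each condition is 1 single-colour array, so no difference below has a replicate check, a standard error or a p-value. The labels do not say whether the wells shared 1 spleen, and both comparisons with PBS use the same PBS array. All 12 leukocyte markers of spleen (Ptprc, Cd3e, Lyz2 and others) were well above background on every array. Of 16 markers of other cells, 6 were so on all arrays, among them Hba-a1 of red cells, with processed signals of 24129, 15927 and 15098 for PBS, MRL/MpJ urine and lpr urine. Mup20, a urinary protein gene, had 8.75, 37.9 and 26.9, and the part of either in the results was not tested. The epithelial markers Upk1b, Upk2, Upk3a, Krt5 and Umod were not well above background on any array.

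Long intergenic noncoding RNAs are transcribed by RNA polymerase II, and many are capped, spliced and polyadenylated like messenger RNAs, but they encode no known protein. As a class they are less abundant than messenger RNAs and more restricted to a cell type. Some act on nearby genes from where they are made, and others move away to act elsewhere. Transcription from opposite strands of a locus gives different RNAs, so a strand-specific probe is needed to tell them apart.

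The probes behind the differences that stood out are shown here as deposited, 5′ to 3′, because each letter string decides which strand was read. The first set is taken from the probes with the largest agreeing differences in each direction, named by the nearest gene. Capitals mark AATAAA, the hexamer of a polyadenylation signal, which was in 3.99% of the 4460 intergenic probes on the printed strand and in 10.3% of the other probes, and in 2.76% and 3.94% on the opposite strand.
Ccnl1 side, chr3:65729719-65729778, reverse: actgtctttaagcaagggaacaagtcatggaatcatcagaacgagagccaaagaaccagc
Nfkbia side, chr12:56564894-56564953, reverse: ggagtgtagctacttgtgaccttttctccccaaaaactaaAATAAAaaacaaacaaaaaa
Gas5, chr1:162967716-162967775, forward: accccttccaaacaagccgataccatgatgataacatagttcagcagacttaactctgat
Mir155hg side, chr16:84708738-84708797, forward: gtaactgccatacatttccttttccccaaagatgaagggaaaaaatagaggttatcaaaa
Mir155hg side, chr16:84705907-84705966, reverse: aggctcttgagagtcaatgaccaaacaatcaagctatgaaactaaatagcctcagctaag
The second set has opposite-strand pairs whose probes overlap on the genome, and capitals mark the bases that both probes of a pair read, 36 near Rybp and 30 near Snai1.
Rybp side, chr6:100174555-100174614, forward: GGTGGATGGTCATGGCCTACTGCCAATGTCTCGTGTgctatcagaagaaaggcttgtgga
Rybp side, chr6:100174531-100174590, reverse: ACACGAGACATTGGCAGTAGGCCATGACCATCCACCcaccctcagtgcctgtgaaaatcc
Snai1 side, chr2:167400912-167400971, forward: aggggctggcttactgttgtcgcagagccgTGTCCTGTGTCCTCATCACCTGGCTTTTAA
Snai1 side, chr2:167400942-167401001, reverse: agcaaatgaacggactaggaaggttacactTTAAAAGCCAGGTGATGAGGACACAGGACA
Within a pair the capitals are reverse complements of each other. Over the array 221 such overlapping pairs lay in 214 loci, and in 220 of them the shared bases were exact reverse complements.

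About as many intergenic probes were detected as not, and by the main call they were detected less often than the rest of the array. A probe counts as detected when the scanner software calls its signal well above background. With PBS this held for 53.2% of the 4460 probes, against 59.5% of the 52139 other probes. It was 50.6% against 56.9% for MRL/MpJ urine and 49.2% against 55.8% for lpr urine. The order turns with a looser call, a signal positive and significant against background, which held for 75.9%, 73.0% and 72.1% of intergenic and 74.2%, 72.2% and 71.3% of other probes on the same arrays. The signals were low: the median processed signal, an intensity in arbitrary units, was 6.20 for PBS, 5.20 for MRL/MpJ urine and 4.73 for lpr urine, and 2.65% of the probes passed 1000 with PBS against 9.75% of the others. Of the 4460 probes, 1952 were detected on all 3 arrays, 1847 on none, 286 with PBS only and 171 with both urines and not with PBS. These patterns were not counted for the other probes, whose detected share was also lower on each urine array. Whether the patterns are particular to intergenic loci was therefore not tested.

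Loci probed on both strands were detected more often per probe than loci probed on a single strand. With PBS 57.7% of probes in both-strand loci were detected, against 49.8% in single-strand loci, with median signals of 8.24 and 4.94. With MRL/MpJ urine the shares were 55.6% and 46.9%, and with lpr urine 54.2% and 45.5%. The order was the same on all 3 arrays. The array design set these groups apart by length too: no both-strand locus was shorter than 5051 bp, with a median of 17551 bp, while 1409 of the 2408 single-strand loci were under 5000 bp. Single-strand loci of at least 5000 bp gave 51.9% for PBS, 47.5% for MRL/MpJ urine and 45.7% for lpr urine, below the both-strand loci. Length above 5000 bp and base composition were not matched between the groups, and the cause of the gap was not tested. The forward and reverse probes of both-strand loci were detected at 56.8% and 58.6% with PBS, and those of single-strand loci at 49.8% and 49.8%.

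**Figure D1:**
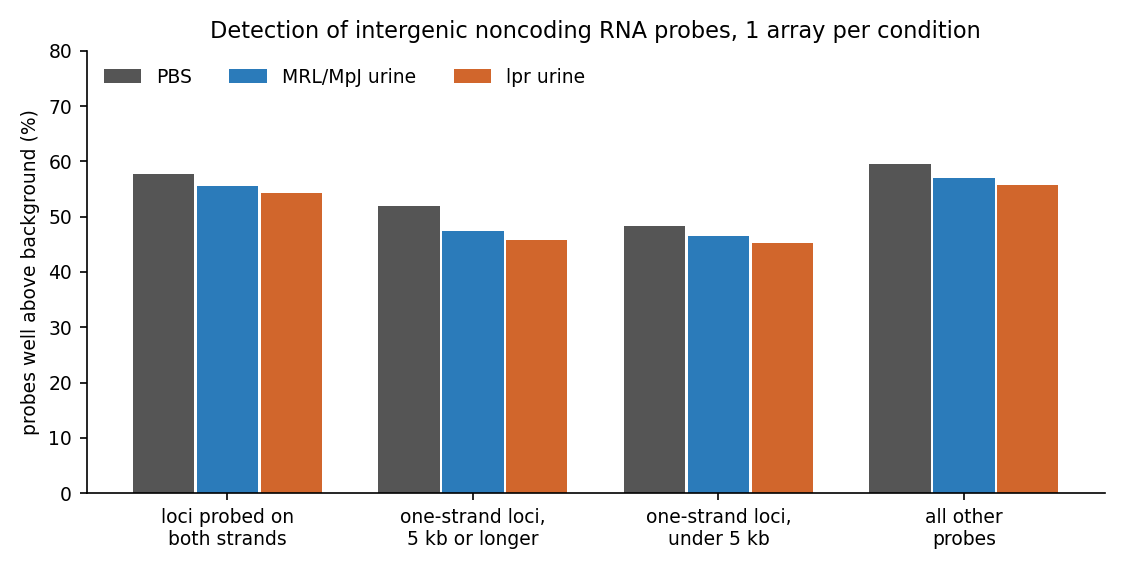
Bars give the percentage of probes called well above background on each array, for 1893 probes in loci probed on both strands, 1102 and 1465 probes in single-strand loci of at least and under 5 kb, and the 52139 other probes. The both-strand bars lie between 54.2% and 57.7%, above both single-strand groups and below the other probes on each array.

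Signal on both strands of a locus was common. With PBS 337 of the 832 loci had a detected probe on each strand, 142 on the forward strand only, 176 on the reverse strand only and 177 on neither. With MRL/MpJ urine the counts were 311, 144, 186 and 191, and with lpr urine 301, 144, 182 and 205. A locus with a detected forward probe had a detected reverse probe in 70.4% of cases with PBS, and a locus without had one in 49.9%. Strand use was mostly the same on the 3 arrays: 614 loci (73.8%) stayed in their class, 250 of them with both strands, 93 forward only, 123 reverse only and 148 neither, and 6 loci were forward only on 1 array and reverse only on another. The probes of the 221 overlapping pairs share from 1 to 60 bases, with a median of 40, and 8 pairs are complementary over their whole length. With PBS 69 of them gave both strands, 84 a single strand and 68 neither. With MRL/MpJ urine those counts were 70, 83 and 68, and with lpr urine 67, 85 and 69.

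By chromosome the detected share ran from 44.3% on chromosome 3 to 64.8% on chromosome 17 with PBS, and it was below the share of other probes on 17 of 20 chromosomes. Chromosome 6 was above it on every array, with 62.4%, 63.1% and 61.6% for PBS, MRL/MpJ urine and lpr urine against 57.8%, 55.4% and 54.1% of other probes. Chromosome 4 was also above it throughout, at 60.4% against 59.7% with PBS. Chromosome X had 46.6% with PBS and 37.5% with each urine, and its other probes went from 52.5% to 49.2% and 47.5%. Chromosome X holds 176 of the intergenic probes.

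**Figure D2:**
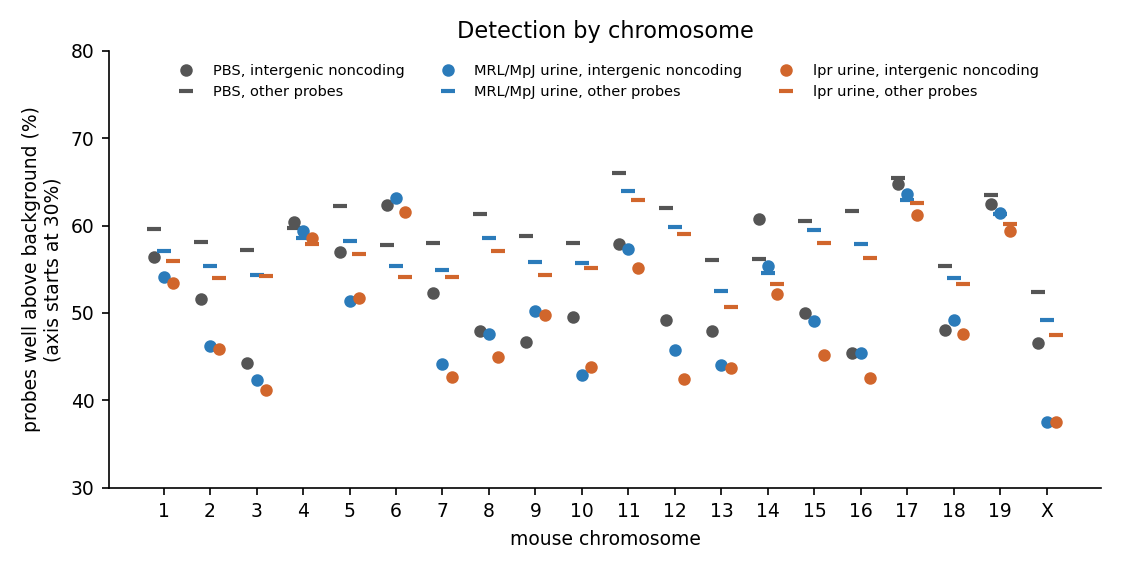
Circles give the percentage of intergenic noncoding RNA probes called well above background on each chromosome and array, and dashes the same for the other probes. With PBS the circles run from 44.3% on chromosome 3 to 64.8% on chromosome 17, and on chromosomes 4 and 6 they lie above the dashes on all 3 arrays.

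Relative to the bulk of the array, intergenic probes were shifted towards higher levels with both urines. A level here is log2 of the processed signal minus the 75th percentile of all non-control probes on that array, and a difference is taken between levels of the same probe on 2 arrays where both are well above background. Against PBS, MRL/MpJ urine had 520 of 2044 intergenic probes higher by 2-fold or more (25.4%) and 147 lower by as much (7.19%), while over all 30286 probes measured on that pair of arrays the background was 15.5% higher and 12.4% lower. The median difference was 0.46 for the intergenic probes and 0.06 for all probes. With lpr urine against PBS, 583 of 1994 were higher (29.2%) and 142 lower (7.12%), against 16.9% and 13.2% of 29743 probes, with medians of 0.59 and 0.08. The medians of both-strand and single-strand loci were 0.47 and 0.46 with MRL/MpJ urine and 0.60 and 0.57 with lpr urine. Probes for annotated RefSeq noncoding RNAs had medians of 0.40 and 0.47 over 897 and 881 probes, and those for RefSeq messenger RNAs -0.04 and -0.04.

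The size of this shift depends on how the arrays are set level. The 75th percentile was lower with MRL/MpJ urine by 0.86 and with lpr urine by 1.06 on the log2 scale, while the E1A spike-in probes differed by 0.04 and -0.07, so scaling to the spike-ins moved all differences from PBS by -0.91 and -0.99. With that scaling 218 intergenic probes were higher and 487 lower with MRL/MpJ urine, and 219 higher and 507 lower with lpr urine. Scaling to the array median gave 367 and 232, and 379 and 222. A positive difference from PBS smaller in size than the spike-in shift, for a locus or a gene, turns negative with the spike-ins. The gap between intergenic and all probes, 0.41 for MRL/MpJ urine and 0.51 for lpr urine, does not depend on scaling. By brightness the gap varied. Among probes on all 3 arrays with a mean log2 signal from 5 to 6, the median with MRL/MpJ urine was 0.50 for 334 intergenic and -0.01 for 3912 other probes, and from 8 to 10 it was 0.51 for 194 and -0.17 for 5203. Below a mean log2 signal of 3 the order turned, with 0.54 for 103 intergenic and 0.65 for 688 other probes.

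**Figure D3:**
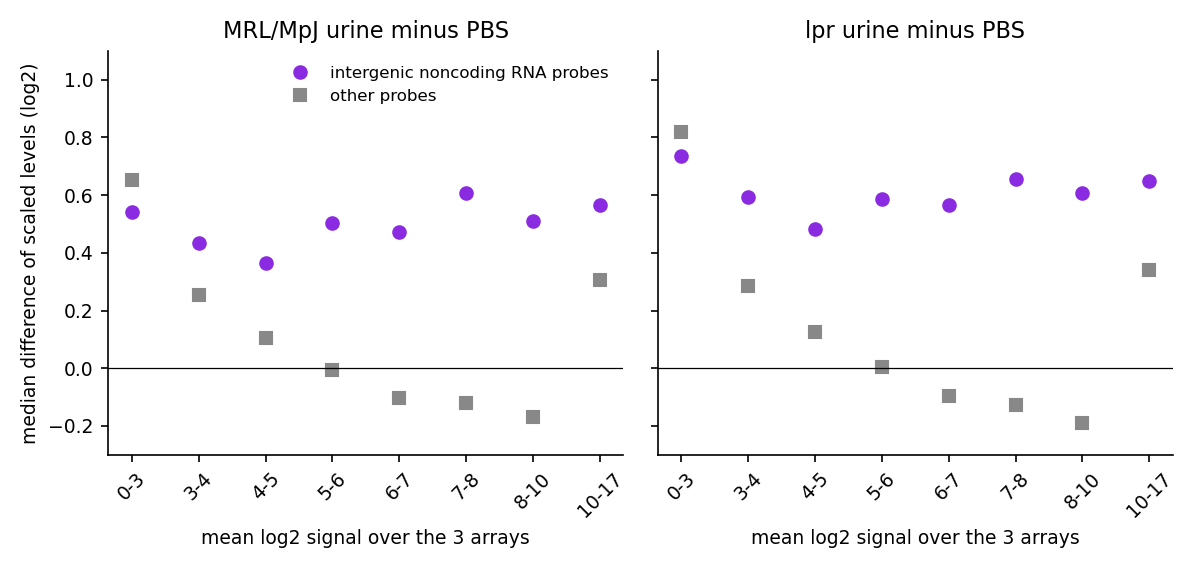
Points give the median difference of scaled levels (log2) from PBS for probes well above background on all 3 arrays, by mean log2 signal, for intergenic noncoding RNA probes (circles) and all other probes (squares). From a mean log2 signal of 5 to 10 the circles lie at or above 0.47 with MRL/MpJ urine while the squares lie at or below -0.01. Both panels use the same PBS array.

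The shift was seen along the whole genome. The median intergenic difference lay above that of other probes on all 20 chromosomes with either urine. With MRL/MpJ urine it ran from 0.30 on chromosome 17 to 0.76 on chromosome 18, where the medians of other probes over the chromosomes ran from -0.07 to 0.16.

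Of the 1952 intergenic probes measured on all 3 arrays, 477 in 439 loci were at least 2-fold higher with both urines and 116 in 105 loci at least 2-fold lower. That is 24.4% and 5.94%, beside a background of 14.4% and 11.1% over 29364 probes. With spike-in scaling it was 200 higher and 402 lower, and with median scaling 341 and 185. At 8-fold or more, 90 intergenic probes (4.61%) were higher on both urine arrays, against 1.63% of all probes. Only 6 (0.307%) were lower, near the 0.238% of all probes. Repeated spots within an array give the only error here. The SD of a difference between spots was 0.37 log2 units at log2 signals below 5, 0.12 from 5 to 8 and 0.05 above, and it leaves out differences between cultures.

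The largest difference in either direction belonged to a reverse-strand locus at chr3:65729664-65731697. Its signal was 8.69 for PBS, 5296 for MRL/MpJ urine and 4936 for lpr urine, which is higher by 10.11 and 10.21 on the log2 scale. The nearest named gene is Ccnl1, which encodes cyclin L1, a protein of RNA splicing speckles. The locus lies 18.6 kb downstream on the strand of the gene, and Ccnl1 itself was higher by 2.0 and 2.09.

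A reverse-strand locus at chr12:56564855-56565310 went from 5.49 with PBS to 301 and 248 with MRL/MpJ and lpr urine, higher by 6.64 and 6.56. It lies 25.6 kb downstream of Nfkbia on the same strand. Nfkbia, which encodes the inhibitor of the transcription factor NF-κB and is one of its rapid targets, was higher by 2.01 and 2.02. At chr6:100162756-100178531, downstream of the Polycomb protein gene Rybp, both strands moved. The forward probe went from 10.0 to 420 and 436, higher by 6.25 and 6.50. The reverse probe, which shares 36 bases with it, went from 29.6 to 222 and 217, higher by 3.77 and 3.93. Rybp went from 251 to 220 and 219, differences of 0.67 and 0.86 that turn negative with the spike-ins. Each strand of the locus thus lay further above PBS than the gene.

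Overlapping reverse-strand loci at chr8:124355710-124401160 and chr8:124397412-124398022 gave alike values. The longer went from 24.9 to 975 and 871, higher by 6.15 and 6.18, and the shorter from 21.9 to 838 and 752, higher by 6.12 and 6.16. Their probes lie in the same stretch, so they are not separate evidence. The nearest named gene, the noncoding Gm26812 on the other strand, had a signal of 1.90 with PBS, not well above background, and 133 and 122 with the urines. The shorter locus lies 33.0 kb downstream of Slc7a5, a large neutral amino acid transporter gene on its strand, which was higher by 3.19 and 3.26.

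Downstream of Erbin, which encodes a scaffold protein of the cell membrane, the reverse-strand locus chr13:104591796-104592249 went from 24.5 to 781 and 691, higher by 5.85 and 5.87. Erbin itself went from 1768 to 1204 and 1197, differences of 0.31 and 0.50 that turn negative with the spike-ins. The overlapping locus chr13:104591573-104599048 gave 5.39 and 5.47 on the reverse strand, and the reverse locus chr13:104592755-104593231 inside it went from 14.9 to 26.4 and 24.7, higher by 1.69 and 1.78. The forward probe of the longer locus was not well above background with PBS or MRL/MpJ urine. Inside Gas5, the host gene of several small nucleolar RNAs, the forward probe of chr1:162965309-162970704 went from 74.4 to 2168 and 1900, higher by 5.73 and 5.73. The Gas5 probe went from 11495 to 9197 and 8702, differences of 0.54 and 0.66, and the reverse probe of the locus had 0.74 and 0.91. These signs also turn with the spike-ins. The interior probe therefore differed from both the gene probe and the opposite strand by more than 4 log2 units.

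Beside Hmgb2, a chromatin protein gene that was higher by 1.23 and 1.26, the forward probe of chr8:59994074-60002058 went from 19.3 to 658 and 466, higher by 5.95 and 5.65. A reverse-strand locus at chr18:3003075-3016150 went from 14.2 to 481 and 341, higher by 5.95 and 5.65. Its nearest named gene, Crem, a cyclic AMP-responsive factor, is 251 kb away and had differences of -1.93 and -1.39. The 9 higher loci described here had signals of 5.49 to 74.4 with PBS, and of at least 301 for MRL/MpJ urine and 248 for lpr urine. The size of such differences depends on how background is treated where the PBS signal is low. With normexp background correction and an offset of 50, the Ccnl1-side values were 7.04 and 7.04. Those on the Nfkbia side were 3.06 and 2.95, and those of the forward Rybp-side probe 3.41 and 3.56.

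**Figure D4:**
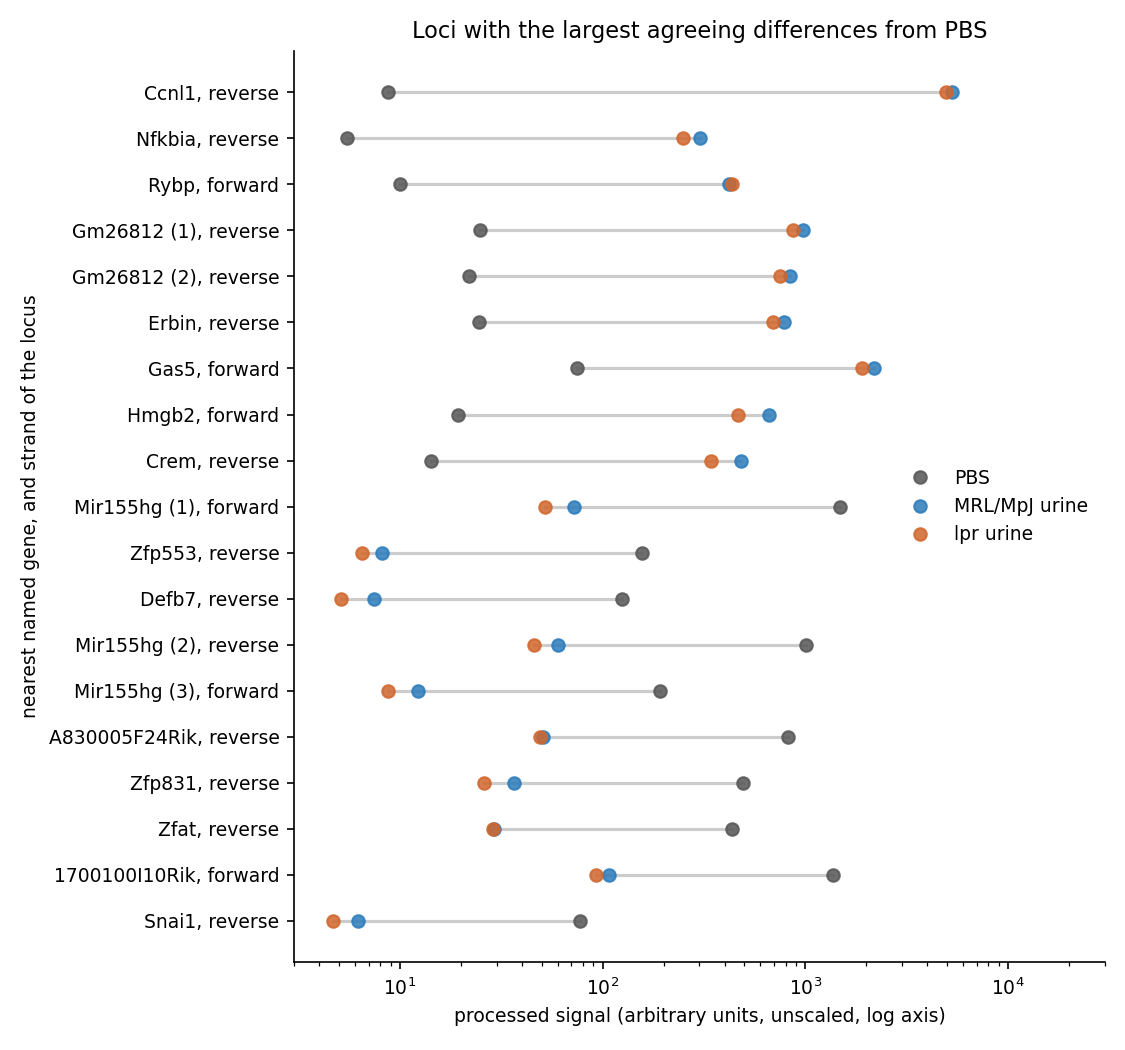
Points give the unscaled processed signal (log axis, arbitrary units) with PBS, MRL/MpJ urine and lpr urine for 9 of the probes with the largest higher and 10 with the largest lower agreeing differences, labelled by nearest named gene and strand. Both urine points lie on the same side of the PBS point in all 19 loci, from the Ccnl1 side (8.69 against 5296 and 4936) to the Snai1 side (77.5 against 6.24 and 4.68). Signals of different probes are not comparable.

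On the lower side, 3 of the 10 named loci lay beside Mir155hg, the host transcript of the microRNA miR-155, which is induced in activated lymphocytes and macrophages. The forward locus chr16:84708695-84708806 went from 1485 with PBS to 71.8 and 52.0 with MRL/MpJ and lpr urine, lower by -3.51 and -3.78. The reverse locus chr16:84702353-84710928 went from 1004 to 60.1 and 45.7, at -3.20 and -3.40, and the forward locus chr16:84707202-84707748 from 193 to 12.3 and 8.75, at -3.11 and -3.40. The loci lie 4.505 to 7.685 kb upstream of the Mir155hg probes, and on both strands. Both forward loci lie inside the interval of the reverse one, so the 3 loci are a single stretch of the genome. Another probe there was well above background with PBS only, at 13.7. Mir155hg had a signal of 112 with PBS and 2.82 and 1.36 with the urines, which were not well above background, so the locus and the gene were low together on both urine arrays.

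Beside Zfp553, a zinc finger gene with differences of -1.74 and -1.98, the reverse probe of chr7:134369091-134376366 went from 157 to 8.15 and 6.51, at -3.41 and -3.54. The reverse locus chr13:48620882-48643532 went from 821 to 50.8 and 48.9, at -3.15 and -3.01. Its neighbour, the noncoding A830005F24Rik, was well above background with PBS only. A reverse locus at chr8:19692532-19694101, with the defensin gene Defb7 as nearest at 195 kb, went from 125 to 7.41 and 5.13, at -3.22 and -3.55. Defb7 was not detected on any array.

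Some low loci lay far from any named gene. The reverse locus chr2:174428737-174439062 went from 492 to 36.5 and 25.9, at -2.89 and -3.19, 92.3 kb from the zinc finger gene Zfp831, which had 0.86 and 0.94. The reverse locus chr15:68161768-68193518 went from 435 to 29.2 and 28.7, at -3.04 and -2.87, 108 kb upstream of Zfat, which had -0.51 and -0.73. The forward locus chr14:115443612-115445950 went from 1369 to 108 and 93.1, at -2.80 and -2.82, and the nearest named gene, 1700100I10Rik at 98.6 kb, was not detected. On chromosome 2, the reverse probe of chr2:167388900-167402475 went from 77.5 to 6.24 and 4.68, at -2.77 and -2.99. Snai1, a repressor gene 20.8 kb away, was higher by 2.37 and 2.26, the opposite direction. With normexp background correction the Snai1-side values were -0.59 and -0.50, those beside Zfp553 -1.05 and -0.99 and those near Defb7 -0.94 and -0.90, so these 3 were no longer 2-fold lower on both urine arrays.

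The stretches in the next sentences were picked after their values were seen and serve as description only. Downstream of Btg1, an antiproliferative gene of lymphocytes, 4 separate forward-strand loci lie 11.6 to 18.3 kb from the gene on its strand. The brightest, chr10:96098058-96098623, went from 872 to 9665 and 8412, and over the 4 the differences were 3.99 to 4.86 with MRL/MpJ urine and 3.77 to 4.80 with lpr urine. Btg1 itself went from 18339 to 4098 and 3208, differences of -1.30 and -1.46. The loci downstream of the gene's probes and the gene's probes thus lay on opposite sides of PBS.

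Lyn, a Src-family kinase gene of B cells, and Rps20, a ribosomal protein gene, lie tail to tail with 7 intergenic probes between or beside them, and 6 were measured on all arrays and at least 2-fold higher on both urine arrays. Next to Lyn the forward loci chr4:3746573-3746891 and chr4:3746945-3747603 were higher by 4.50 and 4.70 and by 4.74 and 4.85. Next to Rps20 the reverse loci chr4:3752496-3752901 and chr4:3756167-3757483 were higher by 5.42 and 5.29 and by 4.71 and 4.54. The remaining probe, for the reverse locus chr4:3745783-3746383 on the Lyn side, had 2.96, 34.6 and 32.6 and was not well above background with PBS. Lyn had differences of -0.76 and -0.86, and Rps20 of 0.65 and 0.63.

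Position relative to the neighbouring gene was therefore counted for all 1896 measured probes whose place could be set. This count was added after the loci above had been seen. Downstream of the nearest named gene on its strand, 194 of 625 probes (31.0%) were at least 2-fold higher on both urine arrays and 21 (3.36%) lower. Upstream on the same strand it was 59 of 355 (16.6%) and 29 (8.17%). On the opposite strand it was 91 of 384 (23.7%) downstream and 82 of 374 (21.9%) upstream. Within 20 kb of the probes of the gene, the same-strand downstream share was 149 of 403 (37.0%), and beyond 20 kb it was 45 of 222 (20.3%). With the nearest protein-coding gene alone the near and far shares were 41.5% of 340 and 19.6% of 245. Median PBS signals were alike, 42.8 for the near downstream probes and 46.7 for the near upstream ones. Beyond 20 kb upstream on the same strand the share was 14.6%, near the 14.4% of all probes. Probes that share a gene are not independent, and the cause of the pattern was not tested.

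**Figure D5:**
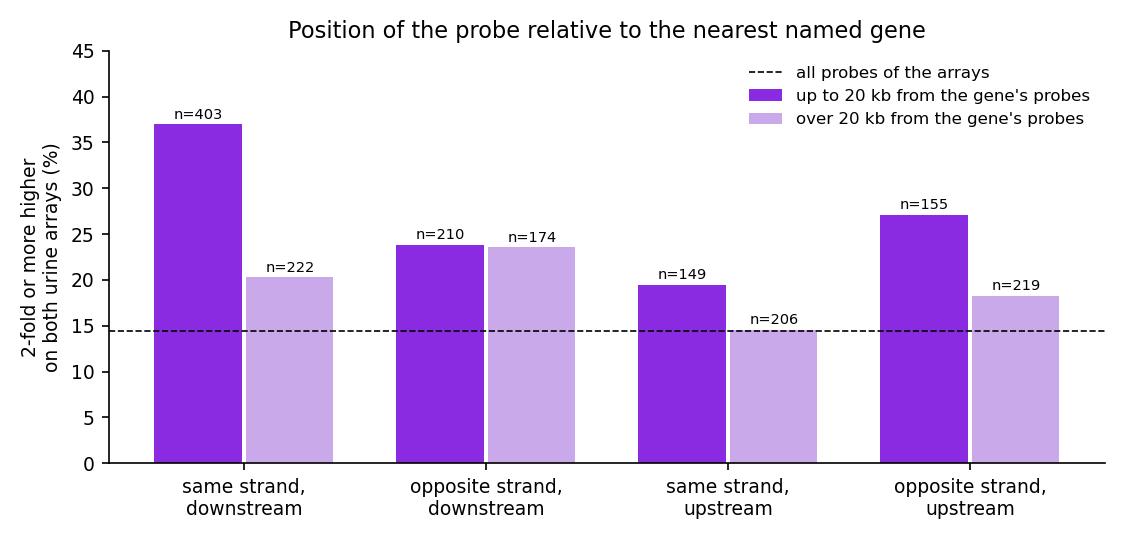
Bars give the percentage of intergenic noncoding RNA probes at least 2-fold higher than PBS on both urine arrays, by strand and side relative to the nearest named gene and by distance; n is the number of probes measured on all 3 arrays, and the dashed line is the share over all probes (14.4%). The highest bar is same-strand downstream within 20 kb, at 37.0%.

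Most neighbouring genes did not pass 2-fold in the direction of the loci, though the share that did was larger than beside loci that had not moved. Of 374 probes that were 2-fold higher on both urine arrays and had a measured nearest gene, 71 (18.98%) had a gene that was also 2-fold higher on both, 39 (10.4%) a gene that was 2-fold lower and 264 (70.6%) neither. Of 85 lower ones, 16 (18.8%) had a lower gene and 14 (16.5%) a higher one. Beside the 943 probes that did neither, 8.80% of genes were higher and 13.1% lower. Over all probes of the arrays it was 14.4% and 11.1%.

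Opposite strands of a locus were further apart than probes of the same strand. In 250 loci both strands were measured on all arrays, and the brightest probes of the strands lay on the same side of PBS with MRL/MpJ urine in 164 (65.6%) and at least 2-fold apart in 106 (42.4%). In 109 cases with several measured probes on a strand, the brightest 2 lay on the same side in 80 (73.4%) and at least 2-fold apart in 25 (22.9%). With lpr urine the same-side shares were 65.2% and 70.6%. Same-side shares depend on the scaling. The intergenic median was itself 0.46 above PBS with MRL/MpJ urine, which raises them. The gaps between probes do not depend on the scaling. The median gap was 0.85 between strands and 0.37 within a strand. Of 54 overlapping opposite-strand pairs measured on all arrays, 24 (44.4%) were at least 2-fold apart, about the share over all opposite strands.

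The loci named next have the 4 largest gaps among nameable loci whose strands lay on opposite sides of PBS; the Gas5 gap is wider, with both strands on the same side. In chr13:48620882-48643532 the reverse strand had -3.15 and -3.01 with MRL/MpJ and lpr urine, and the forward strand went from 65.2 to 47.6 and 35.8, differences of 0.41 and 0.19. In chr19:54011403-54018978, next to the cilium gene Bbip1, the forward probe went from 96.5 to 181 and 166, higher by 1.77 and 1.84, and the reverse probe from 54.2 to 9.70 and 7.21, at -1.62 and -1.85. In chr17:56687541-56694616, 5.78 kb from Safb2, the forward probe went from 93.3 to 278 and 250, higher by 2.44 and 2.48, and the reverse probe from 196 to 55.9 and 44.0, at -0.95 and -1.10. Near Snai1 the forward probe went from 40.9 to 31.9 and 31.6, differences of 0.50 and 0.68, while the brightest reverse probe of the locus went from 104 to 8.40 and 7.18, at -2.77 and -2.80. The reverse probe that shares 30 bases with the forward one had -2.77 and -2.99. Another reverse probe of the locus went the other way, from 25.9 to 78.8 and 67.0, higher by 2.47 and 2.43, so the reverse probes disagree there. Signs of 0.41 to 0.68 depend on the scaling and turn with the spike-ins, but the gap between the strands does not.

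Other loci moved on both strands. Of the 250 with both strands measured, 28 were at least 2-fold higher on both strands with MRL/MpJ urine and 4 lower. For lpr urine it was 30 and 4. Among single probes of both-strand loci, 24.6% of 968 were 2-fold higher and 7.23% lower with MRL/MpJ urine. For lpr urine it was 28.2% and 7.11% of 942. The counts that unrelated strands would give were not computed. These counts depend on the scaling and were made with the main scaling only. The examples here were added outside the naming rule. Higher, besides the Rybp locus, was chr8:59994074-60002058 beside Hmgb2, where the reverse strand went from 10.1 to 141 and 111, higher by 4.66 and 4.51. That reverse probe has no genome position, so its place and strand rest on its label. In chr8:13507348-13543773 the forward strand was higher by 4.19 and 3.88 and the reverse by 4.99 and 5.18. Lower on both strands were chr19:56820850-56837925, with the reverse strand going from 2939 to 307 and 242, at -2.40 and -2.54, and the forward strand at -1.42 and -1.55, and chr17:26911397-26917047, with -2.08 and -2.03 forward and -1.69 and -1.02 for the reverse probe measured on all arrays. In chr12:52880692-52933444 the strands had -1.61 and -1.43, and -1.35 and -1.39.

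The brightest intergenic signals with PBS were alike on the 3 arrays. The reverse locus chr11:22681800-22707775 near B3gnt2 had 56650, 49445 and 44502 with PBS, MRL/MpJ urine and lpr urine, and chr7:108209996-108216032, with P2ry2 as nearest named gene, had 54642, 50675 and 46072. The probe of the chromosome 7 locus has no genome position, so its place rests on its label. The forward loci chr14:78924115-78938125 near Akap11 and chr6:116092274-116144199 had 35341 and 23928 with PBS, and the reverse locus chr17:17481706-17482457 had 27043. The chromosome 14 and chromosome 6 probes are 83.3% and 88.3% G and C, and those of the other loci named here 35% to 50%. The part of base composition in these signals was not tested. Their differences from PBS were 0.50 to 0.81, below 2-fold, and no intergenic spot was saturated.

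Some loci crossed the detection limit, which gives a bound only: the bright signal against the higher of the dim probe's own signal and the lowest signal called well above background on that array, both after 75th-percentile scaling. Of the 171 probes detected with both urines and not with PBS, the reverse locus chr4:116790373-116797823 between the probes of Btbd19 was higher at least 199.6-fold under MRL/MpJ urine and 124-fold under lpr urine, from unscaled signals of 2.76, 491 and 266. With spike-in scaling its bounds were 106-fold and 62.4-fold. The reverse loci chr1:13058312-13099826 near Prdm14 and chr18:60812427-60819775 near G630071F17Rik were at least 95.7-fold and 142-fold, and at least 84.0-fold and 89.4-fold, higher, and with spike-in scaling 51.0-fold and 71.6-fold and 44.8-fold and 45.01-fold. Of the 286 probes detected with PBS only, the forward locus chr3:96206303-96206871, 11.8 kb from the telomerase RNA gene Terc, had 209 with PBS and was at least 25.8-fold and 22.7-fold lower. The forward locus chr2:60581618-60589968 between the probes of Rbms1, at 201, was at least 24.7-fold and 21.8-fold lower, and the reverse locus chr7:67119535-67120213 upstream of Snhg14, at 163, at least 20.05-fold and 17.6-fold lower. With spike-in scaling these bounds were 48.4-fold and 45.1-fold, 46.4-fold and 43.2-fold and 37.6-fold and 35.1-fold. All bounds given here hold for the background treatment of the processed signal and were not computed with normexp.

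The urines of the 2 strains gave nearly the same intergenic levels. Of 2123 probes measured with both urines, 16 were at least 2-fold higher with lpr urine (background 0.294% of 30608 probes) and 1 lower (background 0.0719%), with a median of 0.06 against 0.01 over all probes. The brighter signal of those 17 was between 9.20 and 62.4, and 10 of them were not well above background with PBS. With normexp background correction none of the 17 calls remained, those beside Bcl6 and Homer1 included. The largest were beside Bcl6, which encodes a repressor needed for germinal centre B cells and was picked out here after its values were seen. The reverse strand of chr16:23992037-24001037 had 3.68 for PBS, 14.8 for MRL/MpJ urine and 60.6 for lpr urine, a difference between the urines of 2.23. The overlapping forward locus chr16:23989160-23992539 had 0.98, 16.8 and 62.4, a difference of 2.09. The forward strand of the first had 88.9, 132 and 217, a difference of 0.91. Bcl6 itself had 342, 1135 and 1021, higher than PBS by 2.59 and 2.63, with 0.04 between the urines. All 3 intergenic probes there, 21.3 to 24.2 kb upstream of the gene, were higher with lpr urine, and the gene was not.

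Downstream of Homer1, a scaffold protein gene with immediate early forms, the forward loci chr13:94185501-94185936 and chr13:94180737-94182912 were higher with lpr than with MRL/MpJ urine by 1.60 and 1.04, from signals of 4.64 and 12.3, and of 13.4 and 24.1. Homer1 had 67.8 with PBS, 638 and 668, with 0.26 between the urines. Among probes measured on all 3 arrays and bright enough to be named, the largest differences between the urines were 1.09 for chr12:111829967-111830904 (11.2 and 20.9), 0.96 for chr14:78214602-78225827 between the probes of Dnajc15, 0.96 for chr17:84470764-84486339 and 0.91 for the Bcl6 probe above. On the other side were -0.90 for chr13:48576557-48581632 near Zfp169, -0.88 for chr13:52678544-52680308, -0.81 for chr8:20014569-20016673 and -0.74 for the forward strand of chr5:137392195-137426421 near Ift22. That last probe had 7.13 with PBS, 208 and 109, higher than PBS by 5.73 and 4.99.

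Among the intergenic probes, 10 carry the name of a known noncoding RNA. NEAT1, the scaffold of nuclear paraspeckles, went from 9496 with PBS to 1648 and 1333, at -1.66 and -1.78. A separate Neat1 probe outside the set had 494, 281 and 246, differences of 0.05 and 0.05, so the probes of this RNA disagree. PINC went from 12.2 to 43.2 and 35.5, higher by 2.69 and 2.60, and the separate Pinc probe had 0.86 and 0.59. TUG1 had 302, 257 and 203, differences of 0.63 and 0.49, and the separate Tug1 probe was higher by 1.94 and 1.43. For both, the 2-fold call depends on the probe. The probe labelled KCNQ1ot1 had 199, 154 and 150, differences of 0.49 and 0.65, but it lies on the strand of Kcnq1, opposite to the Kcnq1ot1 probes of the array, which had 4929, 6576 and 5953, higher by 1.28 and 1.33. NRON was detected with PBS only and lincP21 with MRL/MpJ urine only, and XIST, TSIX, H19 and HOTAIR on no array. Of 40 named long noncoding RNA genes listed for comparison, 34 had other probes, 25 were measured on all arrays, 6 were at least 2-fold higher on both urine arrays and 1 lower, with medians of 0.02 and 0.05. Over all probes 14.4% were higher on both and 11.1% lower. Spike-in scaling shifts these differences by -0.91 and -0.99. None of the 6 then stays 2-fold higher on both urine arrays, and both medians turn negative. Snhg8, a small nucleolar RNA host gene, was higher by 1.28 and 1.51, and Oip5os1 was lower, at -1.15 and -1.26.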

How the data were processed

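Spots were read with Agilent Feature Extraction 12.0.3.1, per the submitters' processing notes. The authors' files hold 1 array each, with processed signal, mean signal and background as linear intensity and quality calls, per the file headers. RNA amplification and labelling were the authors' steps and decide which strand and which part of a transcript is read. Spots called outliers were left out, repeated spots of a probe were averaged, and log2 of the processed signal was scaled to the 75th percentile of each array. Differences were counted at 2-fold among probes well above background on both arrays. No p-value was computed, and the number of arrays limits the precision.

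The members, gene lists and rules were chosen with earlier results of these data known. Named loci are measured and unsaturated on all arrays, with the brighter signal at or above that array's median over measured intergenic probes: the 10 largest agreeing differences each way against PBS, 4 each way between the urines, the 5 brightest with PBS, the 3 largest bounds each way and 4 loci with opposed strands, 1 probe per locus; 1 locus that the rule names is not reported here. The nearest gene is the RefSeq-named gene (symbols of GRCm38.p6) with the closest probe within 1 Mb of the locus in mm9; upstream and downstream are relative to that gene's probes, not its ends. Normexp used limma 3.58.1 with an offset of 50. Counting was tested on simulated data.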

Additional observations from a re-analysis of the deposited data

How the results depend on the processing

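Counts of intergenic probes at least 2-fold higher and lower were 520 and 147 with MRL/MpJ urine, 583 and 142 for lpr urine, 477 and 116 on both, and 16 and 1 between the urines. With median scaling 232 were lower with MRL/MpJ urine, 379 higher and 222 lower with lpr urine, 185 lower on both and 2 lower between the urines. Spike-in scaling gave 218 and 487, 219 and 507, 200 and 402, and 10 and 4. Normexp gave 216 and 49, 240 and 52, 206 and 48, and 0 and 0, with no test behind these counts. Without a filter on dim probes they were 1102 and 304, 2035 and 319, 985 and 225, and 178 and 114. With the brighter signal at or above the array's median of measured probes they were 232 and 83, 244 and 89, 233 and 77, and 2 and 0; this leaves fewer probes. The excess of the intergenic median over that of all probes, 0.41 for MRL/MpJ urine and 0.51 for lpr urine, was 0.27 and 0.34 with normexp, 0.22 and 0.27 without the filter and 0.65 and 0.73 with the stricter one. The cause of these changes was not tested.

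The looser call, a signal positive and significant against background, detected 75.9%, 73.0% and 72.1% of intergenic probes with PBS, MRL/MpJ urine and lpr urine. This is above the 74.2%, 72.2% and 71.3% of other probes, the reverse of the main order. It gave 566, 551 and 530 loci with both strands, 215 loci with a single strand with MRL/MpJ urine, and a lower share than other probes on 8 chromosomes with PBS and 9 with lpr urine. The gap between both-strand and single-strand loci, 7.91, 8.67 and 8.70 percentage points, was 27.9, 29.5 and 29.2 when a locus was read from its brightest probe, where both-strand loci have more probes to choose from, and 13.6, 12.2 and 12.1 with overlapping intervals merged. With normexp all 40 differences of the 20 named agreeing loci kept their sign, the smallest was 0.50 in size and 3 lower loci fell under 2-fold. The other alternatives were no check of sign. The filters leave a named value as it is, and keeping flagged spots barely moves it. Median and spike-in scaling shift all values of a comparison alike, by at most 0.99 in size, while the smallest named difference was 2.77. No paired analysis was possible because each group has 1 array and the labels give no replicate numbers; for the same reason no array could be left out. Most intergenic signals are near background, so the counts of dim loci are the least certain.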

Other observations

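Intergenic probes had more G and C than the others, with a median of 45% against 41.7%. Detection with PBS followed the base composition: 46.1% of 964 intergenic probes below 40% GC were well above background, 49.3% of 2362 from 40% to under 50%, and 67.3% of 1134 at 50% or more. Other probes had 55.2%, 59.6% and 69.6% in the same ranges, so the gap between intergenic and other probes was 9.13, 10.3 and 2.28 percentage points, smallest in the GC-rich range.

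Intergenic probes that shared at least 25 bases in a row with a RefSeq microRNA hairpin numbered 3, all on the strand of the hairpin. The probe at Mir8110, in chr8:91471819-91551119, had signals of 37.6, 24.6 and 21.2 on the PBS, MRL/MpJ urine and lpr urine arrays, differences of 0.25 and 0.23. The probes at Mir363 and Mirlet7c-2 were not well above background on any array.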
